A study of Mus musculus with 14 samples.

Results

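The Tcf7l2/Rspo3 neurons are a group of glutamatergic cells of the mouse lateral hypothalamic area, a region that takes part in feeding, arousal and reward. They were chosen by their own transcript counts. A cell barcode had to hold at least 1000 transcript counts (unique molecular identifiers, UMIs), with at most 20% of them from mitochondrial genes. It had to hold Slc17a6, which encodes the vesicular glutamate transporter, above the sum of the GABAergic genes Gad1, Gad2 and Slc32a1. Barcodes with 3 or more Trh UMIs or with 2 or more Otp and Sim1 UMIs were left out. The barcode then had to hold at least 2 UMIs of Tcf7l2 and Rspo3 together, and at least as many as of Fezf2 and Fst together. This gave 157 cells, which were 9.36% of the 1678 glutamatergic barcodes and 1.59% of the 9891 barcodes that passed the limits on UMIs and mitochondrial share. The tables listed 28410 barcodes in all.

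The cells came from male wild-type C57BL/6J mice, 7 fed a high fat diet at will and 7 fed a control chow of matched taste. Punches of the lateral hypothalamus were dissociated and run through Drop-seq, a droplet method that captures the 3′ end of transcripts on barcoded beads, 1 library per mouse and in 2 sequencing pools. The labels give neither ages nor the time spent on the diets. The study compared cell states between the diets. The libraries held 147470 to 5611524 UMIs, and 33 to 1203 barcodes per mouse passed the limits. High fat diet replicates 1 to 7 gave 14, 20, 24, 20, 4, 8 and 0 Tcf7l2/Rspo3 neurons. Control replicates 1 to 7 gave 19, 7, 7, 14, 15, 5 and 0. An earlier clustering of the same tables set high fat diet replicate 1 and control replicates 1 and 2 apart from the other mice in glia and neurons, so counts are also given without these 3 mice. A single barcode sequence was shared between mice, and 0 of the Tcf7l2/Rspo3 neurons carried it.

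Tcf7l2 encodes a transcription factor of the TCF/LEF family. It binds DNA and, with β-catenin as partner, switches Wnt target genes on, while Groucho/TLE proteins bound in its place hold them off. Rspo3 encodes R-spondin 3, a secreted protein that binds Lgr receptors and keeps Wnt receptors on the cell surface, so that cells respond more to Wnt ligands. In the adult brain Tcf7l2 is best known from the thalamus and habenula, where it maintains the identity of excitatory neurons.

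The Tcf7l2/Rspo3 neurons held a median of 4977 UMIs and 2509 genes, with 1.41% mitochondrial UMIs. The other 1521 glutamatergic barcodes had a median of 4434 UMIs. All 157 cells held Snap25, which encodes a protein of synaptic vesicle fusion. Gad2 was counted in 24.8% of the Tcf7l2/Rspo3 neurons (88.6 CPM) and in 12.5% of the other glutamatergic barcodes (45.7 CPM). Gad1 was counted in 7.64% and 8.09% and Slc32a1 in 1.91% and 2.37%, in the same order. Of the 4 further genes named as markers of this group, the transcription factor gene Dmrta2 was counted in 23.6% of the Tcf7l2/Rspo3 neurons and in 1.84% of the other glutamatergic barcodes. Its pooled level was 72.9 CPM (counts scaled to the UMI total of the cell group) in the Tcf7l2/Rspo3 neurons and 4.12 CPM in the others. Samd3 had 72.9 CPM in the Tcf7l2/Rspo3 neurons and 49.4 CPM in the others, and stood at 192 CPM in the glutamatergic barcodes chosen for Fezf2 and Fst. Tbr1, a transcription factor gene of excitatory neurons, had 46.0 CPM in the Tcf7l2/Rspo3 neurons and 22.9 CPM in the others. Ndnf, which encodes a secreted neurotrophic protein, was found in 5 of the 157 cells, at 5.61 CPM in the Tcf7l2/Rspo3 neurons and 5.09 CPM in the others. The data therefore go against Ndnf as a marker, and the group is named here by its 2 defining genes. These marker levels are descriptions with no test.

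Marker lists of neighbouring regions gave unequal counts. At least 1 gene of the 4 on the thalamus list was counted in 50 of the 157 Tcf7l2/Rspo3 neurons (31.8%) and in 23.8% of the other glutamatergic barcodes, with a median sum per mouse of 108 CPM in the Tcf7l2/Rspo3 neurons and 63.6 CPM in the others. Most of these cells held Rora, counted in 46 of the 157. At least 1 gene of the ventromedial hypothalamus list was counted in 27 of the 157 cells (17.2%) and in 10.9% of the others, mainly Fezf1, counted in 26 of the 157. The subthalamic and posterior hypothalamic list was counted in 3.18% of the Tcf7l2/Rspo3 neurons and in 11.0% of the others, and the habenula list in 1.27% of the Tcf7l2/Rspo3 neurons and 1.38% of the others. Gbx2 of the thalamus and Pou4f1 of the habenula had 0 UMIs in the Tcf7l2/Rspo3 neurons and in the others. Foxa1 and Lmx1b of posterior hypothalamic neurons, Nr5a1 of the ventromedial hypothalamus and Foxb1 of the mammillary nuclei had 0 UMIs in the Tcf7l2/Rspo3 neurons. The same held for Slc17a7, which encodes the vesicular glutamate transporter of cortical neurons. A count of 0 among 157 cells allows a share of up to 1.91% of cells with a UMI. The astrocyte list was counted in 136 of the 157 cells (86.6%) and in 79.0% of the others, with a median sum of 847 CPM in the Tcf7l2/Rspo3 neurons and 754 CPM in the others. Of its 5 genes, Aldoc was counted in 135 of the 157 cells, Gja1, Agt and Slc1a3 in 2 each, and Aqp4 had 0 UMIs. The microglia list was counted in 3.82% of the Tcf7l2/Rspo3 neurons and 2.17% of the others, with Csf1r and P2ry12 at 0. The oligodendrocyte precursor list was counted in 5.10% of the Tcf7l2/Rspo3 neurons and 5.06% of the others, with Cspg4 at 0. The endothelial list was counted in 1.91% of the Tcf7l2/Rspo3 neurons and 1.84% of the others, with Cldn5 and Pecam1 at 0. The 6 oligodendrocyte markers summed to a median of 329 CPM per mouse in the Tcf7l2/Rspo3 neurons (lowest 291, highest 1645) and 1386 CPM in the other glutamatergic barcodes (lowest 766, highest 2392). Myelin transcripts were thus present in both sums.

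The defining counts were low, and the 2 genes were spread unevenly over the cells. These values chose the cells and are given as a description. The 157 cells held 559 Tcf7l2 and 284 Rspo3 UMIs. The sum of both genes had a median of 4 and a maximum of 19 UMIs per cell. At the threshold, 49 cells had exactly 2 UMIs and 27 had 3, and just outside it 123 glutamatergic barcodes had 1 UMI and 1061 had 0. Of the 157 cells, 59 had Tcf7l2 with no Rspo3 UMI, 33 had both and 65 had Rspo3 with no Tcf7l2 UMI. The 59 cells with Tcf7l2 alone had a median of 5 Tcf7l2 UMIs, up to 17 in a cell. The 65 cells with Rspo3 alone had a median of 2 Rspo3 UMIs, and the highest Rspo3 count of any cell was 10. Among cell types set aside, Tcf7l2 was counted in 2.55% of GABAergic and 3.41% of oligodendrocyte barcodes, with medians of 3625.5 and 1463 UMIs. Rspo3 was counted in 5.20% of GABAergic and 0.0599% of oligodendrocyte barcodes. At least 2 UMIs of Tcf7l2 and Rspo3 together were held by 118 of 3888 GABAergic and 5 of 3341 oligodendrocyte barcodes.

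**Figure D1:**
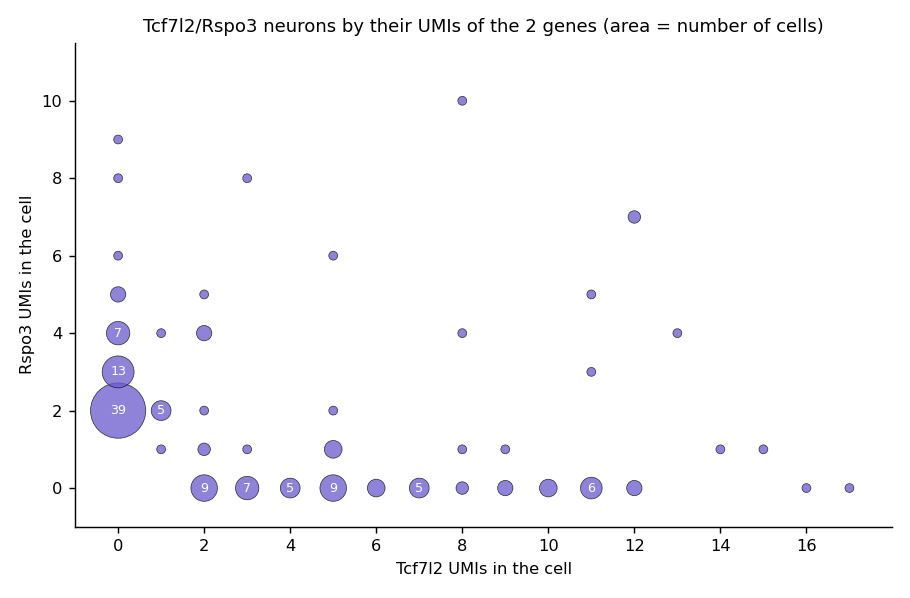
Tcf7l2 UMIs (x axis) against Rspo3 UMIs (y axis) in each of the 157 Tcf7l2/Rspo3 neurons, with the area of a point giving the number of cells at that pair of counts. Most cells lie on an axis: 59 cells have no Rspo3 UMI and 65 have no Tcf7l2 UMI, against 33 with both.

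Although few cells held both genes, Rspo3 was counted more often where Tcf7l2 was present. This was examined over all 1342 glutamatergic barcodes left after the steps on Trh, Otp and Sim1, so that the joint threshold did not decide it. Rspo3 was found in 26 of 85 barcodes with at least 2 Tcf7l2 UMIs (30.6%, exact 95% interval 21.0 to 41.5%). It was found in 7 of 34 barcodes with 1 Tcf7l2 UMI (20.6%, 8.70 to 37.9%) and in 162 of 1223 with none (13.2%, 11.4 to 15.3%). The intervals cover counting error only. The share was higher in barcodes with Tcf7l2 in 7 of the 7 mice that had enough such barcodes. Depth moved the same way, with medians of 4921, 4541 and 4004 UMIs in these 3 classes, and its part in the difference was not tested.

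The Tcf7l2/Rspo3 neurons were then compared with the other glutamatergic barcodes of the same mouse, over the 7 mice with at least 10 such neurons. The higher genes included Sema3e, Nxph1, Rph3a and Meis2, and the lower ones included 5 neuropeptide precursor genes and several myelin genes. The counts were summed per mouse and tested by edgeR's quasi-likelihood method with mouse as a block and Benjamini-Hochberg adjustment. Of 5617 genes tested, 49 (0.872%) were higher and 52 (0.926%) were lower in the Tcf7l2/Rspo3 neurons at an adjusted p under 0.05, together 1.8% of those tested. An unadjusted p under 0.05 was found for 566. The median log2 fold change over all genes tested was 0.00774. Genes used by the selection and mitochondrial genes were not counted. The counts of gene lists given below stand beside the 1.8% and were not tested against it. Without the 3 mice set apart the count was 57. With every cell thinned to 1000 UMIs it was 20, of 1631 genes that could be tested. These held 50 of the 101 genes called above, of which 14 passed again. The other glutamatergic barcodes are a mixture that includes neurons with hypocretin (Hcrt) or melanin-concentrating hormone (Pmch) transcripts. The mixture also holds all glutamatergic barcodes that the selection left out for Trh, Otp or Sim1, among them the 205 Otp/Sim1 barcodes compared below. The part of these selection steps in the differences was not tested.

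Sema3e, which encodes a secreted semaphorin that steers axons and vessels through plexin receptors (GRCm38 chr5:14025276-14256689), was the most strongly raised of the guidance genes. Its level per mouse had a lowest, median and highest value of 88.1, 95.3 and 152 CPM in the Tcf7l2/Rspo3 neurons, against 14.1, 20.1 and 36.6 CPM in the other glutamatergic neurons. The groups did not overlap. The difference was 2.21 on the log2 scale (SE 0.26, edgeR adjusted p = 1.82e-10). It passed in 14 of the 14 alternative analyses in which it could be tested.

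Nxph1, which encodes neurexophilin 1, a secreted ligand of α-neurexins at synapses (chr6:8948614-9249619), followed closely. It had 127, 262 and 372 CPM (lowest, median, highest) in the Tcf7l2/Rspo3 neurons and 48.4, 59.4 and 82.1 CPM in the others, with no overlap. The difference was 2.12 on the log2 scale (SE 0.16, edgeR adjusted p = 7.41e-19), and it passed in 16 of 16 alternatives. Pcdh8, a protocadherin gene of cell adhesion, averaged 90.0 ± 40.4 CPM in the Tcf7l2/Rspo3 neurons and 21.6 ± 6.66 CPM in the others (SD, n = 7 mice each). Of the 59 genes in the axon guidance and adhesion list, 37 were tested, 3 were higher and 1 was lower, with a median log2 fold change of 0.06. The lower gene was Tenm2, a teneurin, at −0.68. Chl1, which encodes a neural cell adhesion molecule, was higher by 0.77 on the log2 scale.

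Release and excitability genes moved by smaller amounts. Rph3a, which encodes rabphilin 3A, a Rab3 effector on synaptic vesicles (chr5:120940499-121010116), averaged 523 ± 184 CPM in the Tcf7l2/Rspo3 neurons and 222 ± 43.3 CPM in the others, without overlap. The difference was 1.17 on the log2 scale (SE 0.13, edgeR adjusted p = 4.92e-09). Of 30 tested genes of the synaptic vesicle list, 5 were higher and 2 lower, with a median of 0.10. The higher ones were the calcium sensor gene Syt1 (0.45), the fusion gene Snap25 (0.37), the vesicle GTPase genes Rab3a and Rab3c (0.39 for Rab3c) and the synuclein gene Sncb (0.38). Unc13c and Synpr were lower. Among 18 sodium and calcium channel genes, Scn1a (0.50) and Cacna2d1 (0.61) were higher and Scn9a (−1.17) was lower, while 0 of 18 potassium channel genes passed. Of 17 GABA and glycine receptor genes, 1 was higher and 0 were lower. Chrm2, a muscarinic receptor gene, was higher by 0.57, and 0 of 14 glutamate receptor genes passed.

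**Figure D2:**
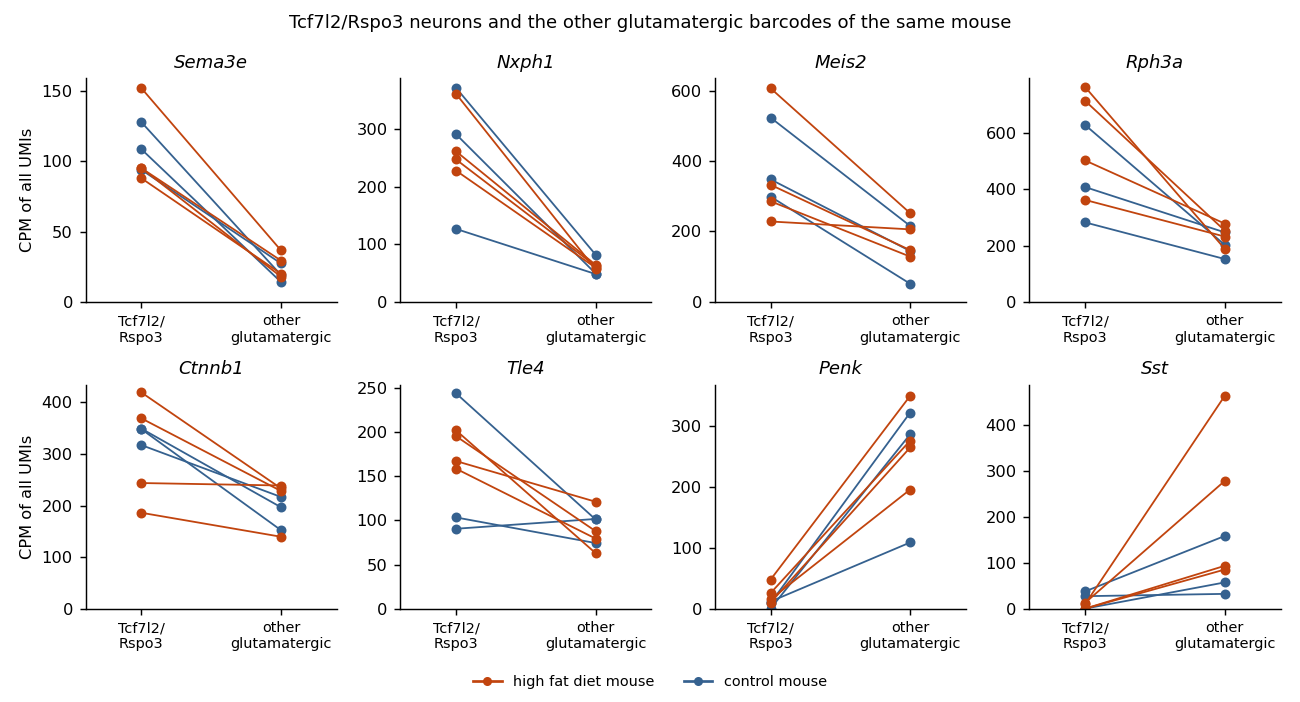
CPM (y axis, linear from 0) of 8 genes in the Tcf7l2/Rspo3 neurons and in the other glutamatergic neurons, with 1 point per mouse in each group and lines joining the values of a mouse (n = 7 mice). Sema3e, Nxph1 and Rph3a lie higher in every mouse and Penk lies lower in every mouse, whereas Tle4 is higher in 6 of 7.

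Of the diencephalic transcription factor list, 18 of 81 genes were tested, 2 were higher and 1 was lower, with a median of 0.30. The lower one was Cbln1, a secreted synaptic organiser that the list holds and not a transcription factor. Meis2, a homeobox gene of the TALE class (chr2:115861264-116067537), averaged 375 ± 138 CPM in the Tcf7l2/Rspo3 neurons and 164 ± 66.8 CPM in the others, a difference of 1.23 on the log2 scale (SE 0.15, edgeR adjusted p = 3.30e-08). Meis2 belonged mainly to some of the cells, those without Rspo3. Over all mice, Meis2 was counted in 36.3% of the Tcf7l2/Rspo3 neurons and in 79.3% of the glutamatergic barcodes chosen for Fezf2 and Fst. Nr2f2, which encodes the nuclear receptor COUP-TFII, averaged 236 ± 99.5 CPM in the Tcf7l2/Rspo3 neurons and 133 ± 32.7 CPM in the others, a log2 fold change of 0.75. The Nr2f2 call was lost without the 3 mice set apart and after thinning.

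Wnt pathway genes were few among those tested, and 2 of them were higher. Of 54 genes in the Wnt and R-spondin list, 10 were tested. Of these 2 were higher and 0 were lower, with a median of 0.17. Ctnnb1 encodes β-catenin, the partner of Tcf7l2 (chr9:120933400-120960507). It had 186, 348 and 419 CPM (lowest, median, highest) in the Tcf7l2/Rspo3 neurons and 139, 217 and 239 CPM in the others, so the ranges overlapped. The difference was 0.68 on the log2 scale (SE 0.13, edgeR adjusted p = 0.000161). The adjusted p was 0.0640 when at least 3 UMIs of Tcf7l2 and Rspo3 were asked for, and 0.0748 after thinning to 1000 UMIs. Tle4, which encodes a Groucho corepressor, averaged 166 ± 54.8 CPM in the Tcf7l2/Rspo3 neurons and 89.9 ± 19.7 CPM in the others, a difference of 0.85 on the log2 scale (SE 0.18, edgeR adjusted p = 0.00116), and was higher in 6 of 7 mice. The kinase gene Gsk3b (0.18), the scaffold gene Apc (0.08) and the Wnt acyltransferase gene Porcn (0.40) did not pass.

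TCF/LEF proteins bind a short motif whose letters include CTTTGAT. A script searched these letters on both strands (ATCAAAG on the other) in the 250 bases before the start of each gene, in RefSeq promoters of GRCm38.p6. The motif was in 1053 of 32851 promoters (3.21%). Promoters were found for 37 of the 49 higher genes, and 1 of their 52 promoters held it (1.92%). Promoters were found for 34 of the 52 lower genes, and 2 of their 50 promoters held it (4.00%). The higher gene with a match was Nr2f2. Its stretch is shown as the only match among the higher genes, from chr7:70366824-70366890 on the minus strand, with the searched letters in capitals.
Nr2f2: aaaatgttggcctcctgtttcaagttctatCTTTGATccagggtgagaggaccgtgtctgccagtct

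Several neuropeptide precursor genes were lower. Of 39 genes of the neuropeptide list in the tables, 16 were tested, 0 were higher and 7 were lower, with a median log2 fold change of −1.43 against 0.00774 over all genes tested. Of the 7, 5 encode peptide precursors, and the other two are the synaptic organiser genes Cbln1 and Cbln2. Penk, which encodes the enkephalin precursor, had 0, 11.6 and 47.6 CPM (lowest, median, highest) in the Tcf7l2/Rspo3 neurons and 109, 276 and 350 CPM in the others, without overlap. The difference was −3.97 on the log2 scale (SE 0.26, edgeR adjusted p = 9.27e-23), and it passed in 17 of 17 alternatives. Sst, the somatostatin gene, averaged 12.5 ± 14.9 CPM in the Tcf7l2/Rspo3 neurons and 167 ± 155 CPM in the others (log2 fold change −3.68). The nociceptin gene Pnoc (−2.27), the dynorphin gene Pdyn (−2.49) and the PACAP gene Adcyap1 (−1.62) were lower too. Of 47 receptor genes for peptides and hormones, 10 were tested and Prlr, the prolactin receptor gene, was the 1 that passed, at −1.36. Cbln1 was lower by 0.97 on the log2 scale, and Lmo3, a LIM-only transcription cofactor gene, had 6.95 ± 6.74 CPM in the Tcf7l2/Rspo3 neurons and 54.4 ± 9.16 CPM in the others.

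Counts for activity and housekeeping genes stand beside the 1.8% called over all 5617 genes tested, and were not tested against that share. Of 6 immediate early genes tested, 0 were higher and Egr1 was lower, at 32.8 ± 21.1 CPM in the Tcf7l2/Rspo3 neurons and 82.7 ± 19.2 CPM in the others (log2 fold change −1.32). Fos had a log2 fold change of −0.47 and did not pass. Of 44 cytosolic ribosomal genes 0 passed, and of 70 nuclear respiratory chain genes 1 was higher (Cox5a) and 1 lower (Atp5e). Of 9 leptin and insulin signalling genes tested, 0 passed.

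Myelin genes were also among the lower ones. Mal (−3.58), Ermn (−2.99), Mobp (−2.65) and Apod (−3.03), known from oligodendrocytes, and the crystallin gene Cryab (−2.21) had lower values in the Tcf7l2/Rspo3 neurons. Ptgds, expressed in oligodendrocytes and meninges, had −1.92, and 0.10 once barcodes with over 3 oligodendrocyte UMIs were removed from both groups. The summed oligodendrocyte markers given above moved with these genes. After that removal 95 of the 101 called genes could be tested and 66 of them passed, while Mal, Ermn, Mobp, Apod and Cryab were too low to be tested.

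A narrower comparison set the Tcf7l2/Rspo3 neurons against the 205 glutamatergic barcodes with Otp or Sim1, transcription factors of neuroendocrine and paraventricular lineages. It used 5 mice with at least 10 cells of each. Of 2690 genes tested, 32 (1.19%) were higher and 26 (0.967%) were lower in the Tcf7l2/Rspo3 neurons, together 2.16%. Meis2 averaged 354 ± 148 CPM in the Tcf7l2/Rspo3 neurons and 9.29 ± 20.8 CPM in the Otp/Sim1 neurons (SD, n = 5 mice each). Nxph1 averaged 231 ± 62.8 CPM in the Tcf7l2/Rspo3 neurons and 21.9 ± 17.9 CPM in the Otp/Sim1 neurons, a log2 fold change of 3.13. Both ranges were free of overlap.

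Further higher genes against the Otp/Sim1 neurons were Sema3e (2.01), the binding protein gene Igfbp5 (1.35), the sodium, calcium and potassium exchanger gene Slc24a2 (1.36), the G protein regulator gene Rgs2 (1.11), Ctnnb1 (0.90) and the potassium channel gene Kcnc1 (0.60). Penk averaged 19.5 ± 18.3 CPM in the Tcf7l2/Rspo3 neurons and 589 ± 280 CPM in the Otp/Sim1 neurons, a difference of −4.83 on the log2 scale (SE 0.28, edgeR adjusted p = 1.07e-33). Asb4 (−2.40), the helix-loop-helix factor gene Tcf4 (−2.13), the imprinted gene Peg10 (−1.71) and Gnas, which encodes a stimulatory G protein subunit (−0.59), were lower as well. DESeq2 called 17 genes here, against 58 by edgeR. The Otp/Sim1 neurons are also part of the other glutamatergic barcodes, so both comparisons share cells.

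The glutamatergic barcodes with Fezf2 or Fst, 58 cells of which 32 held Samd3, gave few mice to compare. In the 2 mice with at least 10 cells of each, edgeR called 0 of 2012 genes (96 had an unadjusted p under 0.05). DESeq2 also called 0. With at least 3 cells of each in 7 mice, a setting chosen after seeing the data, 957 genes were tested, 5 were higher and 4 lower in the Tcf7l2/Rspo3 neurons. The higher genes were Rph3a (1.45), Rgs2 (1.37), Nxph1 (1.28), the calcium sensor gene Hpcal1 (1.18) and the calmodulin-binding gene Pcp4 (0.61). The lower genes were the fucosyltransferase gene Fut9 (−1.13), the CaMKII inhibitor gene Camk2n1 (−0.75), A730017C20Rik (−0.70) and the ciliary gene Ahi1 (−0.48). Pooled levels over all mice are given as a description. Meis2 had 341 CPM in the Tcf7l2/Rspo3 neurons and 540 CPM in the Fezf2/Fst barcodes. In the same order, Ctnnb1 had 300 and 272 CPM and Tbr1 46.0 and 42.2 CPM. Sema3e had 114 and 25.8 CPM, and Nxph1 had 265 and 106 CPM.

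Within the group, cells with and without Rspo3 differed in 8 genes. Cells with at least 1 Rspo3 UMI were set against cells with none in the 4 mice with at least 5 of each, which were high fat diet replicates 1, 3 and 4 and control replicate 1. Of 920 genes tested, 3 (0.326%) were higher and 5 (0.543%) were lower with Rspo3, together 0.87%, by edgeR's quasi-likelihood test with mouse as a block. After thinning every cell to 1000 UMIs, 89 genes were left to test and none of the 8 was among them. Without high fat diet replicate 3 the count was 1.

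Meis2 separated the cells most. With Rspo3 it had 0, 55.4, 305 and 358 CPM in those mice, in the order given, against 478, 645, 1206 and 756 CPM without Rspo3. The values did not overlap. The difference was −2.09 on the log2 scale (SE 0.29, edgeR adjusted p = 3.94e-10), and Meis2 passed in 9 of the 9 alternatives in which it was tested. Over all 14 mice, Meis2 was counted in 43 of the 59 cells without Rspo3 and in 11 of the 65 cells without Tcf7l2. Dlgap1, which encodes a scaffold of the postsynaptic density, averaged 145 ± 37.5 CPM with Rspo3 and 390 ± 101 CPM without (SD, n = 4 mice each), a log2 fold change of −1.46. Cdk14, a kinase gene that acts in Wnt receptor signalling (307 ± 101 CPM with Rspo3, 621 ± 108 CPM without), the RNA-binding gene Ralyl (−1.18) and the complexin gene Cplx1 (−1.12) were lower too. Cplx1 was lower in 3 of 4 mice and had 146 CPM with Rspo3 and 63.7 CPM without in high fat diet replicate 1.

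Rbfox1, a splicing regulator gene, had 379, 277, 323 and 478 CPM with Rspo3 in those mice, against 127, 0, 248 and 112 CPM without. It was higher with Rspo3 in each mouse, with a difference of 1.72 on the log2 scale (SE 0.40, edgeR adjusted p = 0.00298). Ptn, which encodes the secreted growth factor pleiotrophin, had 846, 905, 197 and 617 CPM with Rspo3 and 223, 125, 248 and 280 CPM without, and was higher in 3 of 4 mice. Calb2, the calretinin gene, averaged 1055 ± 494 CPM with Rspo3 and 609 ± 447 CPM without, and was higher in 3 of 4 mice. Rbfox1 passed in 3 of 8 alternatives, Ptn in 4 of 7 and Calb2 in 4 of 9.

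**Figure D3:**
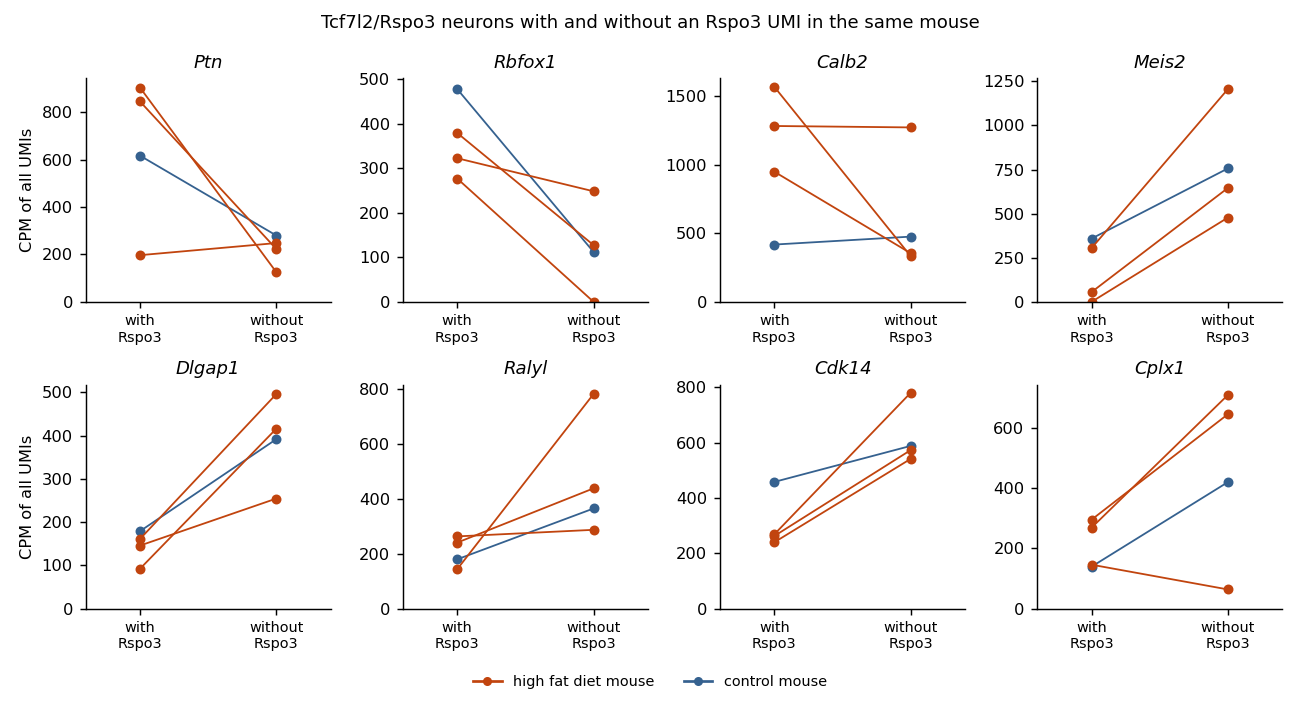
CPM (y axis, linear from 0) of the 8 genes that passed the test in cells with at least 1 Rspo3 UMI and in cells with none, with 1 point per mouse and lines joining the values of a mouse (n = 4 mice). Rbfox1 lies higher with Rspo3 in each of the 4 mice and Meis2 lies lower in each.

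Each end of the group was also set against the other glutamatergic barcodes. Cells with Tcf7l2 and no Rspo3 differed in 55 of 3434 genes tested, in 5 mice with at least 5 such cells. Cells with Rspo3 and no Tcf7l2 differed in 20 of 5084 genes tested, in 6 mice with at least 5 such cells. The counts thus rest on different genes and mice. The lists shared 7 genes, which were 12.7% of the 55 and 35.0% of the 20. They share the cells they were compared with. Nxph1 was higher in both, at 2.13 in cells with Tcf7l2 alone and 1.24 in cells with Rspo3 alone. Rph3a was higher in both as well (1.51 with Tcf7l2 alone and 0.92 with Rspo3 alone). Penk was lower in both, at −3.80 with Tcf7l2 alone and −3.51 with Rspo3 alone. Dlgap1 had 2.97 with Tcf7l2 alone and −0.29 with Rspo3 alone, and Meis2 had 1.89 with Tcf7l2 alone and 0.43 with Rspo3 alone. The second value of both genes did not pass. Ctnnb1 passed at neither end, with 0.15 with Tcf7l2 alone (edgeR adjusted p = 0.955) and 0.43 with Rspo3 alone (edgeR adjusted p = 0.833).

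Some levels pooled over all mice, chosen after their values were seen, differed widely along the group. The pooled values themselves were not tested. Nos1, the neuronal nitric oxide synthase gene, had 162 CPM in cells with Tcf7l2 alone, 20.0 CPM with both genes and 37.3 CPM with Rspo3 alone, against 48.6 CPM in the other glutamatergic barcodes. Igf1, a growth factor gene, had 89.7, 25.0 and 4.98 CPM in the same order, against 16.9 CPM in the others. Lamp5 ran the other way, with 6.90, 35.1 and 99.6 CPM, against 32.5 CPM in the others. Dmrta2 was highest where both genes were counted, at 27.6, 200 and 42.3 CPM. Six3, a homeobox gene of the anterior forebrain, had 13.8, 85.1 and 39.8 CPM, against 7.28 CPM in the others. Nts, the neurotensin gene, had 497, 901 and 884 CPM, against 178 CPM in the others. Nts was counted in 36 of the 157 cells, and it did not pass in the fits on sums per mouse given next. With Tcf7l2 alone its log2 fold change against the others was 1.01 (edgeR adjusted p = 0.887). With Rspo3 alone it was 2.00 (edgeR adjusted p = 0.977). Between cells with and without Rspo3 it was 0.54.

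Cells with Tcf7l2 alone also held transcripts of acetylcholine synthesis, in counts looked up after the values were seen. Slc5a7, which encodes the choline transporter of cholinergic terminals, was counted in 11 of 59 such cells (18.6%), from 8 mice, and in 21 of 1521 other glutamatergic barcodes (1.38%). Chat, which encodes choline acetyltransferase, was counted in 13 of the 59 cells (22.0%) and in 15 of the 1521 others (0.986%). Both were counted in 8 of the 59 cells, from 7 mice, and the 11 cells with Slc5a7 all held Meis2. Slc18a3, which encodes the vesicular acetylcholine transporter, had 0 UMIs in the group and in the others.

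The share of Tcf7l2/Rspo3 neurons did not differ detectably between the diets. High fat diet mice had a lowest, median and highest share of 0, 9.05 and 15.7% of their glutamatergic barcodes, and control mice 0, 8.28 and 20.0%, so the groups overlapped throughout. The shares of 0 came from high fat diet replicate 7 with 1 glutamatergic barcode and control replicate 7 with 8. The share of 20.0% came from control replicate 6 with 25 glutamatergic barcodes. Each mouse had the same weight in the means and the test. The means were 8.36 ± 4.97% on the high fat diet and 9.34 ± 6.37% on control chow (SD, n = 7 mice each), a difference of −0.980 percentage points. An exact two-sided permutation test over mice gave p = 0.756, where the smallest possible p was 0.000583. Within pool 1 the means were 7.00% on the high fat diet and 6.73% on control chow (exact permutation p = 0.943). Within pool 2 they were 10.2% on the high fat diet and 12.8% on control chow (exact permutation p = 0.600, smallest possible 0.100). As a share of all barcodes within the limits, the cells made up 1.52 ± 0.861% in high fat diet mice and 1.87 ± 2.09% in control mice (exact permutation p = 0.788).

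**Figure D4:**
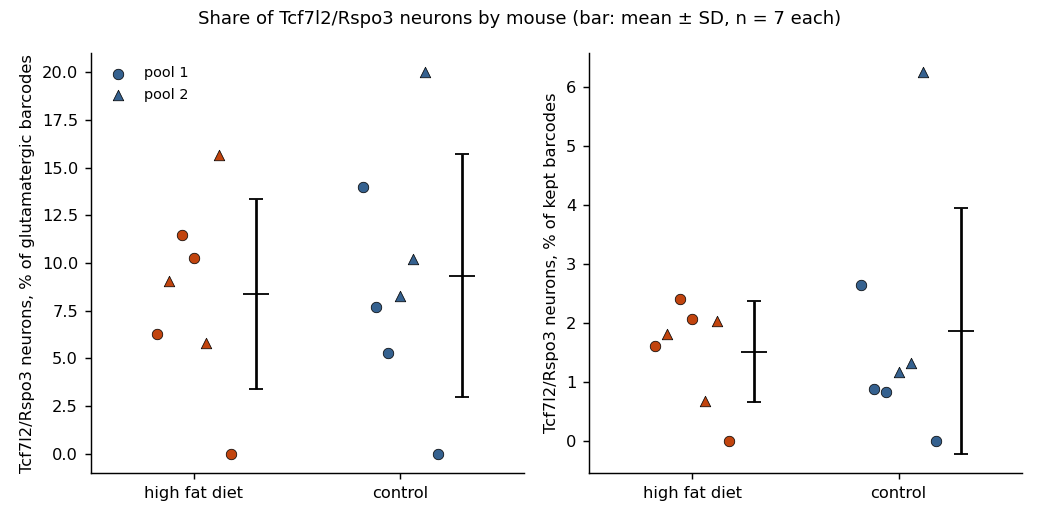
Share of Tcf7l2/Rspo3 neurons among glutamatergic barcodes (left, y axis in percent) and among all barcodes within the limits (right, y axis in percent) in each high fat diet mouse and each control mouse, with the mean and SD of each diet (n = 7 mice each) and circles for pool 1 and triangles for pool 2. Values on the left run from 0 to 15.7% on the high fat diet and from 0 to 20.0% on control chow. The points at 0 are mice with 1 and 8 glutamatergic barcodes, and the point at 20.0% is a mouse with 25.

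The make-up and depth of the cells gave no call either. Cells without Rspo3 were 46.0 ± 20.4% of the group in 5 high fat diet mice and 35.8 ± 14.9% in 6 control mice with at least 5 cells, a comparison added after seeing the data (exact permutation p = 0.366). Within pool 1 these shares were 45.0% on the high fat diet and 44.4% on control chow, and within pool 2 they were 47.5% and 27.1%. The median UMI count per cell, on the log10 scale, was 3.68 ± 0.105 in 4 high fat diet mice and 3.77 ± 0.144 in 3 control mice (exact permutation p = 0.429, smallest possible 0.0286). The depth difference was 0.0335 within pool 1 (3 high fat diet mice, 1 control mouse) and −0.0122 within pool 2 (1 high fat diet mouse, 2 control mice). A p above the threshold does not show that the diets gave the same values.

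Few genes passed the test of diet in the Tcf7l2/Rspo3 neurons. The fit used 4 high fat diet mice and 3 control mice with at least 10 such cells, whose sums held 65686 to 157422 UMIs, with sequencing pool as a term. Of 2554 genes tested by edgeR's quasi-likelihood method, 1 was higher (0.0392%) and 1 was lower (0.0392%) on the high fat diet, together 0.0783%, and 114 had an unadjusted p under 0.05. Counts of Tcf7l2, Rspo3 and Slc17a6 chose the cells, so their values are given as a description. Tcf7l2 averaged 809 ± 275 CPM in the high fat diet mice and 468 ± 276 CPM in the control mice, a log2 fold change of 0.34. Rspo3 averaged 336 ± 45.9 CPM in the high fat diet mice and 323 ± 82.1 CPM in the control mice, a log2 fold change of 0.04. Slc17a6 had −0.19. Without high fat diet replicate 4 or control replicate 5 the count was 0. Without the 3 mice set apart, pool 1 had no control mouse left in the fit. With pool as a term, diet was then compared only between high fat diet replicate 2 and control replicates 4 and 5. Without high fat diet replicate 2 it was compared only with control replicate 1, the 1 fitted control mouse of pool 1. No count is given for these settings. Of 10 Wnt genes tested, Tcf7l2 among them, and of 4 neuropeptide genes, 0 passed. In simulated data this fit recovered 29.2% of 2-fold changes, so most changes of that size would be missed.

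The lower gene was mt-Rnr2, the 16S ribosomal RNA of the mitochondrion. It had 2344, 2014, 881 and 1512 CPM in the high fat diet mice and 4888, 4160 and 6567 CPM in the control mice, without overlap. The difference was −1.53 on the log2 scale (SE 0.27, edgeR adjusted p = 0.0178). With at least 5 cells per mouse the range was 881 to 2344 CPM in 5 high fat diet mice and 1303 to 6567 CPM in 6 control mice, and the log2 fold change of −1.09 did not pass (edgeR adjusted p = 0.996). Within pool 1 (3 high fat diet mice, 1 control mouse) the log2 difference was −1.74, and within pool 2 (1 high fat diet mouse, 2 control mice) it was −1.38. mt-Rnr2 counts toward the mitochondrial share that the selection limits. The other glutamatergic neurons of the first 7 mice differed in the same direction, at 1935 ± 890 CPM in the high fat diet mice and 5673 ± 3223 CPM in the control mice. Over all 14 mice they had 3599 ± 4380 CPM on the high fat diet and 4154 ± 2928 CPM on control chow, with a log2 difference of −1.16 within pool 1 and 0.46 within pool 2. The mitochondrial genes mt-Nd5 (−1.13, edgeR adjusted p = 0.0894) and mt-Rnr1 (−1.10) did not pass.

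A few barcodes carried transcripts of other cell types into these sums. A single barcode of high fat diet replicate 2 held 228 oligodendrocyte marker UMIs among its 5953. Another barcode of the same mouse held 2623 of the 2765 Hcrt UMIs of the group. With barcodes of over 20 oligodendrocyte or Hcrt UMIs removed, 3 in all, mt-Rnr2 was the 1 gene called by edgeR for diet.

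**Figure D5:**
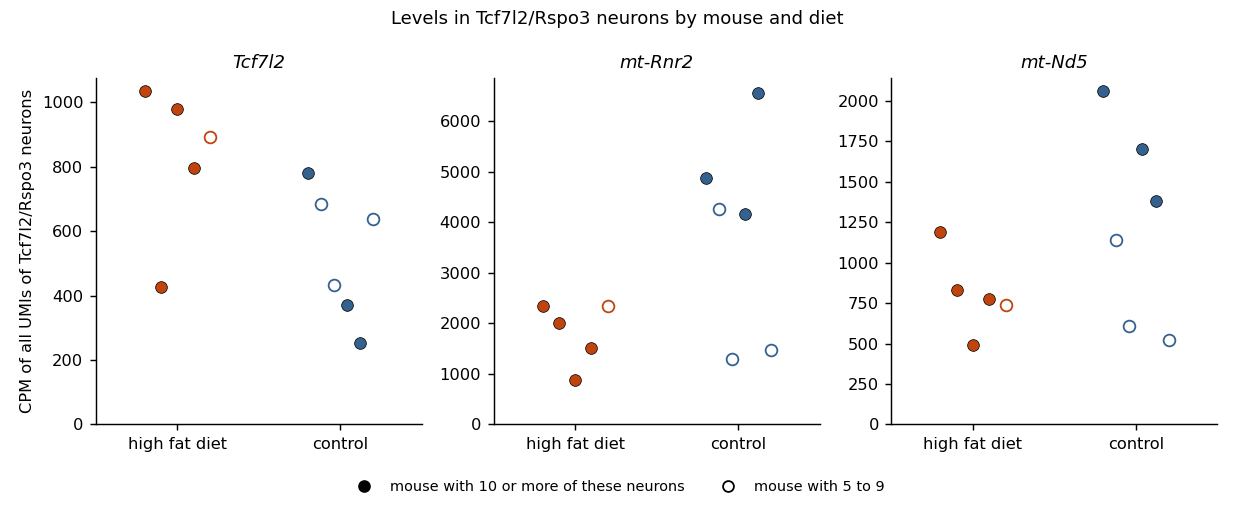
CPM (y axis) of Tcf7l2, mt-Rnr2 and mt-Nd5 in the Tcf7l2/Rspo3 neurons of each high fat diet and control mouse, with filled points for mice with at least 10 such cells and open points for mice with 5 to 9. The filled mt-Rnr2 points do not overlap between the diets, the open ones do. Pools are not marked. The filled points are 3 mice of pool 1 and 1 of pool 2 on the high fat diet, and 1 and 2 on control chow.

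The effect of diet was also set against that in the other glutamatergic neurons by an interaction test. Of 6749 genes, edgeR called 1 (0.0148%), the RNA-binding gene Qk, with a difference of 4.07 on the log2 scale (edgeR adjusted p = 0.0342). Of its 30 UMIs in the Tcf7l2/Rspo3 neurons, 19 came from the barcode of high fat diet replicate 2 that held the oligodendrocyte transcripts. After removal of such barcodes Qk was too low to be tested. In simulated data the interaction fit recovered 3% of 2-fold and 57.1% of 4-fold changes.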

How the data were processed

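Per the labels' protocols, single-cell libraries were made by Drop-seq from tissue punches and sequenced in 2 pools. The submitters' processing notes name bcl2fastq 2.18.0.12, STAR 2.4.2a, Picard 2.2.4 and the builds mm10 and GRCm38. The counting tool and annotation are not named there. The deposited tables hold counts of UMIs per gene (21568 symbols) and barcode, not normalized. Here counts were summed per mouse and cell group (Python 3.11.15, scanpy 1.11.5) and tested with edgeR 4.0.16 (TMM scaling, filterByExpr, robust quasi-likelihood F test, Benjamini-Hochberg over all genes tested), with DESeq2 1.42.0 as an alternative. The script was tested on sums simulated with known changes and a fixed spread. For diet it recovered 29.2% of 2-fold and 98.9% of 4-fold changes, with 7 false calls. For the interaction it recovered 3% and 57.1%, with 0 false calls. Against the other glutamatergic neurons it recovered 66.7% and 100%, with 11 false calls. These values were 74.2% and 100% (8 false calls) against Otp/Sim1, and 66.3% and 100% (4 false calls) for Rspo3.

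The members and gene lists were chosen with earlier results of these data known. Named genes against other cells were the 20 with the largest change in each direction that passed, had the same direction in every mouse and at least 20 CPM in the higher group, plus the 4 with the smallest p per list. For diet, interaction and Rspo3, all that passed were named (for diet, the 5 smallest p per direction if few passed). Some genes that these rules name are not reported here. Shares were tested by exact permutation over mice. Replicate numbers follow the listing order and pair no mice, so the mouse was the block only between cell groups of the same mouse. The labels do not say that litters were separate, so the p-values for diet measure the spread between these mice. Those between cell groups and of the interaction, with mouse as a block, rest on the spread of the differences within these mice. Scrublet, run on mice with at least 300 barcodes within the limits, called 91 of the 9891 (0.920%), 2 of them in the group, and doublets were removed only in an alternative. Alternatives on the 3 mice set apart, on cells of each end of the group and on barcodes with foreign transcripts were chosen after seeing the data. CPM scale counts to the UMI total of the cell group in a mouse or, where called pooled, over all mice.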

Additional observations from a re-analysis of the deposited data

Results flagged for a closer look

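In 57 groups of 4 to 10 mice, 4 values stood farther from the rest than the spread of the other mice allows, where chance gives about 1 in 20 such groups. Among control mice, replicate 6 had 6.25% of its barcodes in the Tcf7l2/Rspo3 group, against 2.64% in the next mouse, and this mouse had 80 barcodes within the limits. Among the 7 mice with at least 10 cells, Gpr83, an orphan receptor gene, reached 244 CPM in high fat diet replicate 1, against 140 CPM in the next. Car10 reached 700.3 CPM in high fat diet replicate 1, against 352 CPM in the next. Pdyn reached 82.6 CPM in high fat diet replicate 2, against 9.41 CPM in the next. The effect of diet on Qk differed by 4.07 on the log2 scale between the Tcf7l2/Rspo3 neurons and the other glutamatergic neurons, in the interaction test. Of the 30 Qk UMIs in the Tcf7l2/Rspo3 neurons, 19 came from 1 barcode of high fat diet replicate 2 that held oligodendrocyte transcripts. Qk was not called with DESeq2.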

How the results depend on the processing

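No paired analysis was possible because the replicate numbers follow the listing order. The diet difference in the share of glutamatergic barcodes, −0.980 points, changed sign at 3 UMIs of Tcf7l2 and Rspo3 (0.598), after thinning to 1000 UMIs (0.158) and with at least 50 glutamatergic barcodes (0.676), and ran from −2.54 to 0.795 as single mice were left out. As a share of all barcodes it became 0.00384 and 0.0145 under the first 2 of these, and ran from −0.666 to 0.376. The log10 depth difference ran from −0.165 to −0.0391 with single mice left out. None of these differences was called in the settings run. Within pool 1 the depth difference was 0.0335 and within pool 2 it was −0.0122, and neither was tested.

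Counts of called genes moved as follows. For diet (2), they were 1 with DESeq2, without the pool term, with Scrublet doublets removed and with barcodes of foreign transcripts removed, 0 at 5 cells per mouse, 13 without the 3 mice set apart and 0 to 4 with single mice left out. Against the other glutamatergic neurons (101 of 5617 genes tested), they were 308 of 17430 with no filter on low counts and 20 of 1631 thinned. They were 57 without the 3 mice, 61 at 3 UMIs and 71 to 119 with single mice left out. At the Tcf7l2 and Rspo3 ends they were 55 and 20. More genes were tested in every comparison with no filter. Against Fezf2/Fst (0), they were 10 with no filter, 8 with Scrublet and 9 at 3 cells. Against Otp/Sim1 (58), they were 17 with DESeq2, 98 with no filter, 18 at 3 UMIs and 43 to 60. For the interaction (1), they were 0 with DESeq2, with no filter and after removal of barcodes, and 0 to 7. For Rspo3 (8), they were 1 with DESeq2, 3 with no filter, 0 thinned, where none of the 8 was tested, and 1 to 7. After removal of barcodes, the interaction gene was not tested. The cause of the other changes was not tested.

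Of values for single genes, 12 changed sign. For diet, Rspo3 ran from −0.0895 to 0.219, Mbp from −0.0510 to 2.73 and Slc17a6 from −0.559 to 0.142 with single mice left out. Rspo3 became −0.0955 without the 3 mice and −0.126 at 5 cells. With Scrublet, Mbp became −0.279, and it was −0.350 after removal of barcodes. Against the others, Ptgds became 0.0974 and 0.0131 after removal of barcodes with over 3 oligodendrocyte UMIs and with over 20 oligodendrocyte or Hcrt UMIs, Gpr83 −0.0902 at the Tcf7l2 end and Dlgap1 −0.289 at the Rspo3 end. Not run for want of mice were diet at 20 cells or 3 UMIs, and Fezf2/Fst with mice left out. A mouse held 24 of these cells at most.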
